A study of Mus musculus with 4 samples.

Results

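The genes described here were the mouse tubulins and stathmin, 10 genes listed by name with earlier results of these data known. They comprised 4 alpha-tubulins (Tuba1a, Tuba1b, Tuba1c and Tuba4a), 4 beta-tubulins (Tubb5, Tubb4b, Tubb2a and Tubb6), the gamma-tubulin Tubg1 and Stmn1, which encodes stathmin. All 10 had a row in a count table of 47643 genes. Of these 10, 9 reached 10 counts summed over the libraries and were tested, among 9608 genes tested in all, and Tubb6 did not.

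The mice used were Tg4 Nr4a3-Tocky Il10-EGFP animals, whose CD4+ T cells were sorted from the spleen. Their Tg4 transgene encodes a T cell receptor specific for myelin basic protein (MBP). A fluorescent Timer protein controlled by Nr4a3, a gene switched on by receptor signals, marks cells that have been stimulated, and EGFP reports Il10. All mice received 4 mg/kg of the [4Y]-MBP peptide under the skin, and the spleens were taken 24 h later. Both sorted populations were Timer+, so that each held cells that had met the peptide, and they differed in EGFP. There were 2 libraries of Il10-EGFP-negative cells (EGFP- below) and 2 of Il10-EGFP-positive cells (EGFP+), and the design names 2 replicate mice per group. No library was of untreated or Timer- cells, and T cells that share a transgenic receptor model a single specificity. A further replicate pair, which the methods say was removed as an outlier, was not analysed here.

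Alpha- and beta-tubulin form the heterodimer from which microtubules are built, and gamma-tubulin, held in ring complexes at the centrosome, starts new microtubules. Stathmin binds free tubulin dimers and promotes the shortening of microtubules until kinases phosphorylate it in mitosis. In activated T cells microtubules move the centrosome to the contact with the antigen-presenting cell and form the spindle of the dividing cell. Cells also adjust their tubulin mRNA to the pool of free dimers, since the first codons of a nascent tubulin chain are read by the factor TTC5, which leads to decay of the mRNA.

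Those first codons are shown because the feedback acts on them in alpha- and beta-tubulin. Each line gives the first 30 bases of the coding sequence, from the GENCODE transcripts on GRCm38, with the first 4 codons in capitals.
Tuba1a: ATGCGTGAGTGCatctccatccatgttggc
Tuba1b: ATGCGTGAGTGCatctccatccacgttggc
Tuba1c: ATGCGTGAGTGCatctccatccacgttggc
Tuba4a: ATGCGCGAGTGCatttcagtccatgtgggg
Tubb5: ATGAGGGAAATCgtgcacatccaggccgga
Tubb4b: ATGAGGGAGATCgtgcacctgcaggctggg
Tubb2a: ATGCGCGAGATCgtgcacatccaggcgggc
Tubg1: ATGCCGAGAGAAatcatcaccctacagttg
Stmn1: ATGGCATCTTCTgatattcaggtgaaagag
Tuba1a, Tuba1b and Tuba1c shared all 4 capital codons base for base, and Tuba1b and Tuba1c were identical over the 30 bases. Gamma-tubulin and stathmin began with other bases. Ttc5 itself was close to absent from the libraries, with 1 and 0 counts in the EGFP- and 1 and 4 counts in the EGFP+ libraries.

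The tubulin genes lie apart in the genome except for 3 alpha-tubulins. Tuba1b (chr15:98931425-98934565, minus strand), Tuba1a (chr15:98949837-98953703, minus strand) and Tuba1c (chr15:99029891-99038110, plus strand) form a cluster on GRCm38. The others are Tuba4a (chr1:75214228-75219865), Tubb5 (chr17:35833921-35838306), Tubb4b (chr2:25222160-25224702), Tubb2a (chr13:34074274-34078007), Tubg1 (chr11:101119938-101126419) and Stmn1 (chr4:134468320-134473843). In GENCODE M21 exons of Gm49450 overlap those of Tuba1a and Tuba1b on the same strand, and Gm49450 was not among the genes of the count table used here. Exons of Tuba4a overlap the opposite-strand gene Stk16, which had 22 and 19 counts in the EGFP- and 18 and 26 in the EGFP+ libraries.

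Paralogues that share sequence can exchange or lose reads, so the sequence they share was measured. The coding sequences of the clustered alpha-tubulins were 98.3% identical between Tuba1a and Tuba1b, 97.9% between Tuba1b and Tuba1c and 97.1% between Tuba1a and Tuba1c. Identity to Tuba4a was 84.7% to 85.3%, and among Tubb5, Tubb4b and Tubb2a it was 82.2% to 84.6%. QuantSeq reads start near the end of the mRNA, so every run of 50 bases in the last 500 bases of each transcript, 451 runs per gene, was looked up in all other GENCODE transcripts. For Tuba1c 308 of the 451 runs (68.3%) occurred in another gene, for Tuba1b 287 (63.6%) and for Tuba1a 254 (56.3%). Tubb2a had 191 shared runs (42.4%), of which 185 were shared with Tubb2b, and Tubb4b had 159 (35.3%), shared with Tubb4b-ps1, Tubb4b-ps2 and Gm16165, which had at most 1 count in any library. Tubg1 had 14 shared runs, Stmn1 had 11, and Tuba4a, Tubb5 and Tubb6 had 0.

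**Figure D1:**
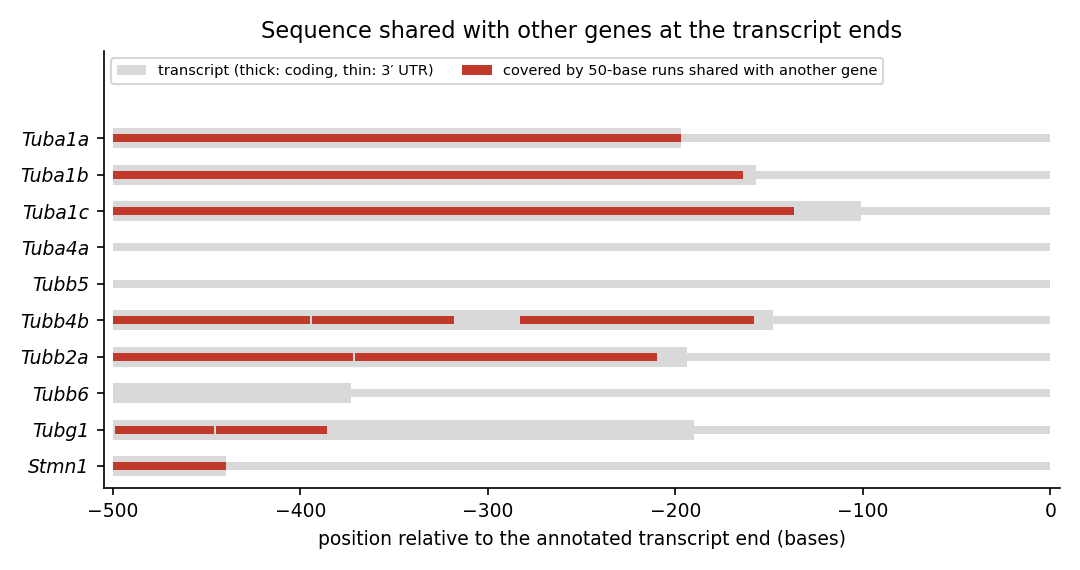
The last 500 bases of the main transcript of each gene, with position in bases before the annotated transcript end on the x axis. Grey bars are thick over coding sequence and thin over the 3′ untranslated region (UTR), and red marks bases covered by 50-base runs that also occur in another gene. In Tuba1a, Tuba1b and Tuba1c the red stops before the 3′ UTR, and Tuba4a, Tubb5 and Tubb6 have none.

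All of the shared runs held some coding sequence. None of the runs that lay wholly in a 3′ UTR was shared, out of 148 for Tuba1a, 108 for Tuba1b and 52 for Tuba1c. The 3′ UTRs of these genes measured 197, 157 and 101 bases and were 39.1% to 44.8% identical in pairs. A read from the last bases of the mRNA could therefore be assigned to 1 paralogue, and many reads from farther upstream could not. The sequencing kit named in the methods limits a read to 150 bases. With runs of 150 bases, 351 per gene, a length added after the data were seen, 207 runs of Tuba1c (59.0%), 154 of Tuba1a (43.9%) and 132 of Tuba1b (37.6%) were still shared, against 6 of Tubb2a and 0 of the other members. The length of the reads used and how the counting treated reads with several matches are not given in the sources used here. The split among Tuba1a, Tuba1b and Tuba1c is therefore uncertain, and their sum is given below with each gene. Reads with several matches may have been left out of the counts, and the sum would then lack them too.

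Total counts per library ran from 644679 to 730330, and the 10 genes took 0.350% and 0.308% of the counts in the EGFP- and 0.367% and 0.338% in the EGFP+ libraries. Il10 had 0 counts in each EGFP- library and 29 and 41 in the EGFP+ libraries, in the direction of the labels. The T cell markers were present throughout, with a summed level of 1754 to 1847 CPM (counts scaled to the library's TMM-normalised total) in EGFP- and 2422 to 2461 CPM in EGFP+ libraries, and 1 of the 8, Trac, was called higher. B cell markers summed to 130.3 and 178.0 CPM in EGFP- and 557.8 and 601.6 CPM in EGFP+ libraries. Of 10 listed, 8 were tested and 6 were called higher, where 2.35% of all genes were. All 8 had both EGFP+ values above both EGFP- values, with a median log2 fold change of 2.35. The B cell receptor gene Cd79a had 0 counts in both EGFP+ libraries. Myeloid markers summed to 111.3 and 138.6 against 385.0 and 200.5 CPM, with 2 of the 9 tested called higher and Adgre1 at 0 counts in each library. CD8 and NK markers summed to 39.4 to 70.0 CPM in the libraries of either population, with 0 of the 5 tested called and Ncr1 at 0. Platelet and erythroid markers summed to 160.2 and 143.0 against 274.1 and 206.3 CPM, with 0 of the 4 tested called. The platelet genes Itga2b and Gp9 and the platelet beta-tubulin Tubb1 were at 0 in each library. The part of other cells in the values given below was not tested. In sorted bulk cells, fewer cells that use a gene and less of its RNA per cell cannot be told apart.

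By counted reads, the most abundant member was Tubb5, a widely expressed beta-tubulin, followed by the alpha-tubulins Tuba1b and Tuba4a. A 3′ method yields reads from the end of each mRNA whatever its length, so CPM was compared between genes without dividing by length. The share of end runs that occur in another gene was 56% to 68% for Tuba1a, Tuba1b and Tuba1c. It was 42% for Tubb2a, 35% for Tubb4b and 0% for Tubb5 and Tuba4a. If reads with several matches were left out, the genes with shared runs would be counted too low beside Tubb5 and Tuba4a. The effect on the order was not tested. The mean level over the 4 libraries was 1654 CPM for Tubb5, 695.2 for Tuba1b and 442.1 for Tuba4a, and their ranges did not overlap. Tuba1c (225.8 CPM) and Tubb4b (178.4 CPM) came next and overlapped each other. Stmn1 (85.1 CPM), Tubg1 (54.2 CPM), Tubb2a (48.7 CPM) and Tuba1a (46.2 CPM) formed the lowest tested group, in which each neighbour overlapped the next. Tubb6 had 2 and 0 counts in the EGFP- and 0 and 1 in the EGFP+ libraries, at or under a floor of 3 counts per library, so no fold was taken.

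**Figure D2:**
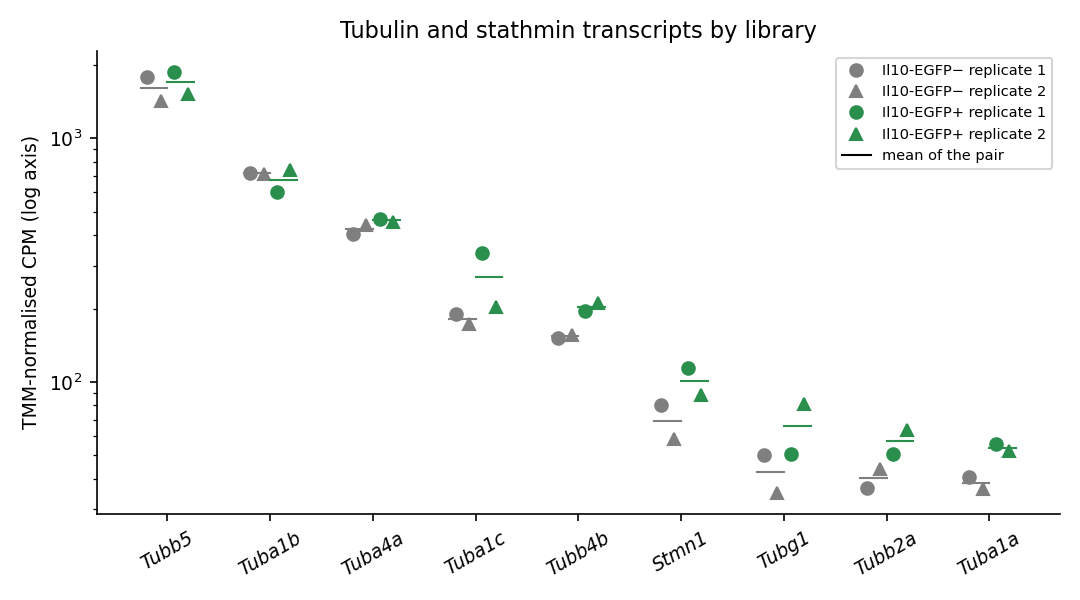
TMM-normalised CPM on a log axis for the 9 tested genes, in order of mean level, with 1 point per library (grey, EGFP-; green, EGFP+; circles, replicate 1; triangles, replicate 2) and lines at the mean of each pair. Tubb5 sits highest, between 1427 and 1874 CPM, and for 7 of the 9 genes both green points lie above both grey points.

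No tubulin and no stathmin transcript passed the test between the sorted populations. None of the 9 tested members was called at an adjusted p under 0.05 by the quasi-likelihood test of edgeR, adjusted over all 9608 genes by the Benjamini-Hochberg method, where 4.09% of the genes were called (2.35% higher and 1.74% lower in EGFP+). At an unadjusted p under 0.05 there were 4 of the 9 (Tuba1c, Tubb4b, Tubg1 and Stmn1), against 15.5% of all genes. DESeq2 called 0 members with 1 at an unadjusted p under 0.05, limma-voom 0 with 4, and limma on the deposited rlog values 0 with 2. The log2 fold change, EGFP+ over EGFP-, was above 0 for 8 of the 9 and had a median of 0.47, beside a median of 0.00 over all genes. For 7 of the 9 both EGFP+ values exceeded both EGFP- values, as they did for 22.3% of all genes.

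The alpha-tubulin Tuba1c came nearest to the threshold. It had 190.0 and 172.2 CPM in the EGFP- libraries (140 and 118 counts) and 339.1 and 202.0 CPM in the EGFP+ libraries (214 and 140 counts). The groups did not overlap, but the EGFP+ libraries differed from each other by a ratio of 1.68 (95% exact interval 1.35 to 2.09, counting error only) and replicate 2 was close to the EGFP- libraries. The log2 fold change was 0.57 (standard error 0.18, 95% interval 0.20 to 0.94), with an adjusted p of 0.0657 in edgeR. Without EGFP+ replicate 1 it was 0.16 (edgeR adjusted p = 0.861), and without EGFP+ replicate 2 it was 0.90 (edgeR adjusted p = 0.00139). The adjusted p ran from 0.00139 to 0.861 over all alternatives and also passed the threshold with no filter on low counts (0.0488), with a filter of 10 counts in every library (0.0239) and with the replicate number as a block in edgeR (0.0136).

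Tuba1b, the alpha-tubulin with the most counted reads, had its lowest value in the library where Tuba1c was highest. Its values were 722.1 and 713.5 CPM in EGFP- and 602.1 and 743.0 CPM in EGFP+ T cells, and the groups overlapped. The log2 fold change was -0.092 (standard error 0.13, 95% interval -0.36 to 0.18; edgeR adjusted p = 0.832), and it was 0.049 without EGFP+ replicate 1. The sum of Tuba1b and Tuba1c was 912.1 and 885.6 CPM in EGFP- and 941.2 and 944.9 CPM in EGFP+ libraries, so that both replicates of EGFP+ had nearly the same sum. Tuba1c made up 20.8% of the 2 genes' counts in EGFP- replicate 1 (exact 95% interval 17.8% to 24.1%), 19.4% in replicate 2 (16.4% to 22.8%), 36.0% in EGFP+ replicate 1 (32.2% to 40.0%) and 21.4% in replicate 2 (18.3% to 24.7%). The share in EGFP+ replicate 1 stood apart from the other 3 libraries by more than counting error, and the replicates of that population did not agree. These intervals and all others on counts cover counting error only.

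**Figure D3:**
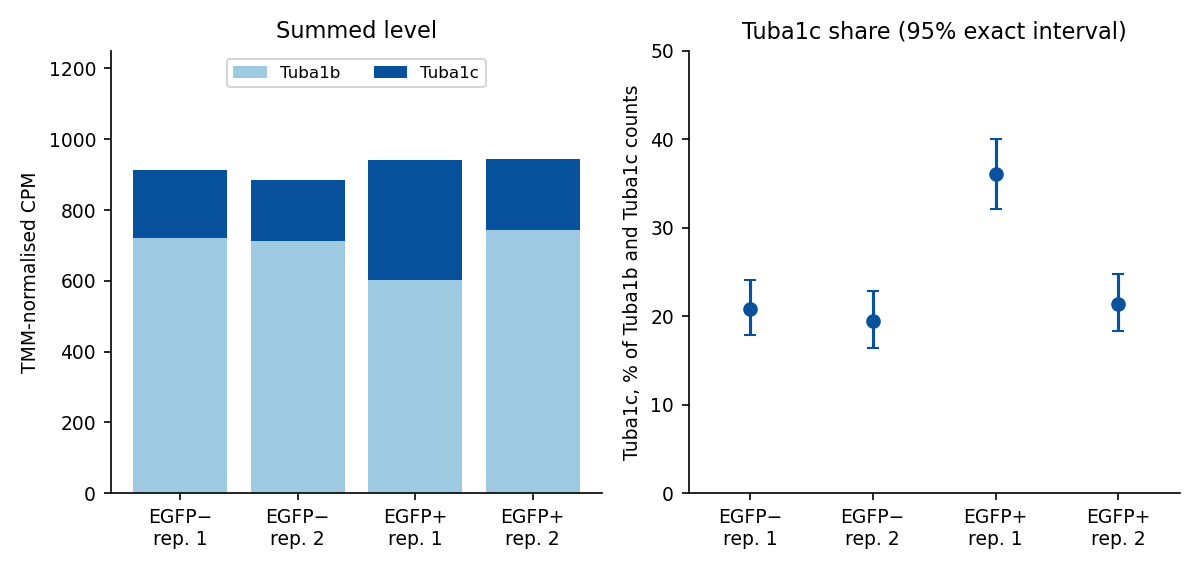
Left, the summed level of Tuba1b (light) and Tuba1c (dark) in TMM-normalised CPM for each library. Right, the share of Tuba1c among the counts of both genes in percent, with exact 95% binomial intervals. The sums lie between 885.6 and 944.9 CPM, while the Tuba1c share is 36.0% in EGFP+ replicate 1 and 19.4% to 21.4% in the others.

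The remaining alpha-tubulins had smaller or less certain differences. Tuba4a, whose coding sequence lacks the final tyrosine of other alpha-tubulins, had 404.5 and 442.1 CPM in EGFP- and 467.4 and 454.4 CPM in EGFP+ libraries. Its log2 fold change was 0.12 (95% interval -0.16 to 0.41), and 0.055 to 0.19 with each library left out. Tuba1a, best known from developing neurons, had 40.7 and 36.5 CPM in EGFP- and 55.5 and 51.9 CPM in EGFP+ libraries. Its groups did not overlap, but it rested on 25 to 36 counts per library and its log2 fold change of 0.47 had an interval from -0.16 to 1.11. When the counts of Tuba1a, Tuba1b and Tuba1c were merged, so that their split no longer mattered, the log2 fold change was 0.088 (standard error 0.12, 95% interval -0.16 to 0.34; edgeR adjusted p = 0.827). The 4 alpha-tubulins together stood at 1357 and 1364 CPM in EGFP- and 1464 and 1451 CPM in EGFP+ libraries, a ratio of the means of 1.07. These sums did not overlap and the gap was larger than the spread within either pair, but with 2 libraries against 2 the smallest p of a two-sided exact permutation test is 0.333, and no test of the sum was made. The difference was 96.9 CPM, and 69.7 CPM when libraries were scaled by total counts only.

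Tubb5 carried 84.7% to 90.3% of the beta-tubulin counts, and its level differed more between the replicate numbers than between the populations. It had 1790 CPM in replicate 1 and 1427 CPM in replicate 2 of EGFP- T cells, and 1874 CPM and 1523 CPM in those of EGFP+ T cells. The ratio of replicate 1 to replicate 2 was 1.25 in EGFP- (95% exact interval 1.15 to 1.36) and 1.23 in EGFP+ (1.13 to 1.34). The log2 fold change between populations was 0.077 (standard error 0.13, 95% interval -0.17 to 0.33; edgeR adjusted p = 0.863), and it was -0.076 without EGFP- replicate 2 and -0.080 without EGFP+ replicate 1. The sum of the beta-tubulins, 1982 and 1627 CPM against 2120 and 1799 CPM, overlapped between the populations. The ratio of beta- to alpha-tubulin CPM was 1.46 and 1.45 in replicate 1 of EGFP- and EGFP+, and 1.19 and 1.24 in replicate 2. The methods speak of a replicate pair, and the paper compared FoxP3 in sorted EGFP+ and EGFP- cells by a paired t test. No source used here says that libraries of the same number came from 1 mouse, and the main fit did not pair them. Over all genes the deviations of replicate 1 in the 2 populations had a correlation of 0.035 across 4965 genes. With the replicate number as a block in edgeR the log2 fold change was 0.080 for Tubb5 (adjusted p = 0.777) and 0.55 for Stmn1 (adjusted p = 0.198).

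The less abundant beta-tubulins were measured higher in EGFP+ T cells without passing the adjusted threshold. Tubb4b, a widely used isotype that is also found in cilia, had 152.0 and 156.1 CPM in EGFP- and 194.9 and 210.6 CPM in EGFP+ libraries. Here the replicates lay close together and the groups apart, and the log2 fold change was 0.40 (standard error 0.18, 95% interval 0.037 to 0.76; edgeR adjusted p = 0.259). Tubb2a had 36.6 and 43.8 CPM in EGFP- and 50.7 and 63.5 CPM in EGFP+ libraries. Its log2 fold change was 0.51 (95% interval -0.11 to 1.13), and 0.33 to 0.66 with each library left out. Its near copy Tubb2b had 0 and 4 counts against 4 and 5, and merging the 2 genes gave 0.57 (95% interval -0.028 to 1.18; edgeR adjusted p = 0.360).

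Tubg1 and Stmn1 were also measured higher in EGFP+ T cells, at lower depth. Tubg1 had 50.2 and 35.0 CPM in EGFP- and 50.7 and 80.8 CPM in EGFP+ libraries, so that the groups were separated by less than 1 CPM. Its log2 fold change was 0.63 (standard error 0.30, 95% interval 0.015 to 1.24; edgeR adjusted p = 0.305), and it ran from 0.24 to 0.91 with each library left out. Stmn1 had 80.1 and 58.4 CPM in EGFP- and 114.1 and 88.0 CPM in EGFP+ libraries (40 to 72 counts). In both populations replicate 1 was the higher, and the log2 fold change was 0.53 (standard error 0.25, 95% interval 0.041 to 1.03, edgeR adjusted p = 0.266). It ran from 0.33 to 0.78 with each library left out. The interval of Stmn1 reaches from almost no difference to a fold of 2.04, so this depth does not set its size.

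In the deposited rlog values, a log2 scale that draws low counts toward the mean, the differences were smaller and kept these directions. Tuba1c had rlog values of 7.10 and 7.01 in EGFP- and 7.61 and 7.15 in EGFP+ libraries. Over the 9 tested genes the difference in mean rlog ran from -0.076 for Tuba1b to 0.32 for Tuba1c. Tubb6 was not among the 9546 genes of that table.

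The genes whose pattern over the 4 libraries was most like that of Stmn1, by the root mean square of the difference in centred log2 CPM, were Ppp1r18 (0.043), mt-Tt (0.080) and Itm2b (0.088), of 1192 genes outside the lists with a mean of at least 100 counts. Ppp1r18, for example, had 221.3 and 163.4 CPM in EGFP- and 293.1 and 243.8 CPM in EGFP+ libraries. For Tuba1b they were Dhx15 (0.026), Nol7 (0.029) and Prrc2c (0.030), each lowest in EGFP+ replicate 1, as Dhx15 was with 339.1 CPM beside 385.2 to 415.5 CPM in the others. With 4 libraries many genes can share such an order.

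Genes called between the populations were found among the proteins that organise microtubules in the spindle. In a list of 25 genes of microtubule dynamics, 22 were tested, 5 were called higher and 0 lower in EGFP+ (of all genes 2.35% were called higher), and the median log2 fold change was 0.48. This list and those below were chosen with earlier results of these data known, so their counts of calls do not test enrichment. Nusap1, which bundles spindle microtubules, had 74.7 and 59.8 CPM in EGFP- and 210.7 and 209.2 CPM in EGFP+ libraries, a log2 fold change of 1.64 (standard error 0.21; edgeR adjusted p = 1.96e-07). Prc1, which cross-links the central spindle, rose from 71.9 and 78.8 CPM to 202.8 and 202.0 CPM, by 1.42 on the log2 scale (edgeR adjusted p = 2.19e-06). Tpx2, which activates Aurora A and nucleates spindle microtubules, rose by 1.24 (edgeR adjusted p = 1.23e-04), and Tacc3, which stabilises kinetochore fibres, rose by 1.18 (edgeR adjusted p = 2.44e-04). The fifth gene called, Dlgap5, was named after its values were seen and rose by 1.47 (edgeR adjusted p = 0.0201). Each of the first 4 was also called with any single library left out, while Dlgap5 was not called without 3 of the libraries in turn (edgeR adjusted p = 0.0517 to 0.365) or with DESeq2 (adjusted p = 0.298). With DESeq2 and the replicate block only Nusap1 and Prc1 were called, and Tpx2 and Tacc3 were not. Of the 451 end runs of Dlgap5, 52 also occur in other transcripts, so part of its reads could be assigned elsewhere.

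**Figure D4:**
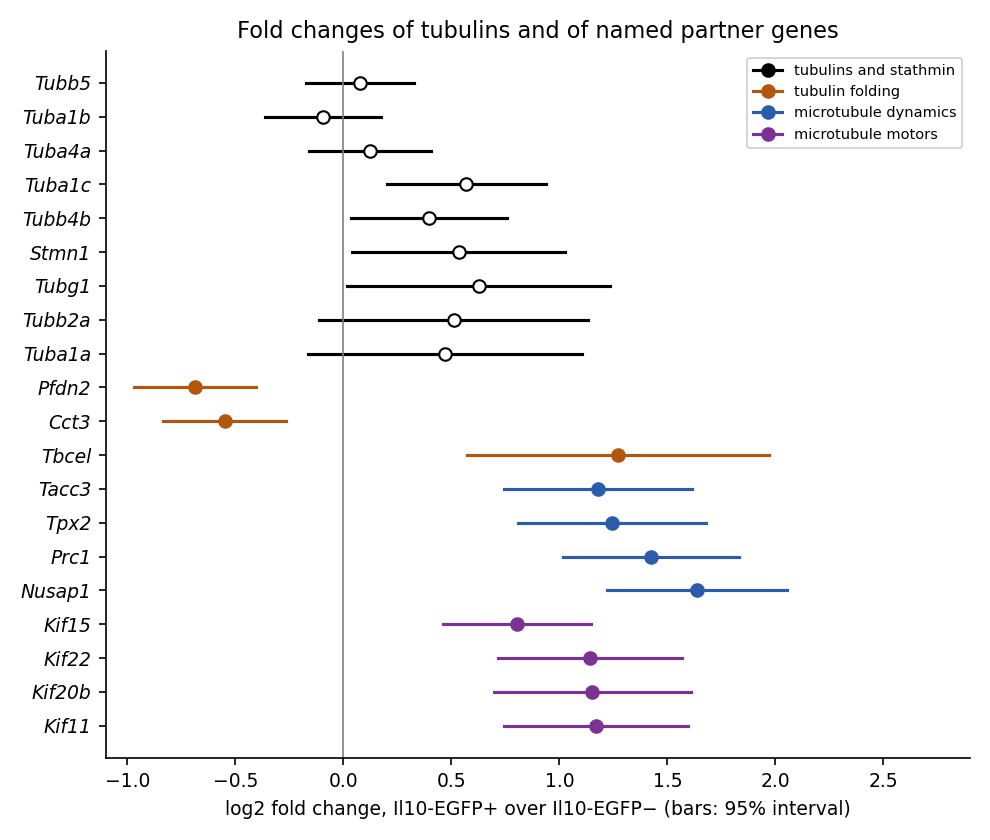
Log2 fold changes, EGFP+ over EGFP-, with 95% intervals for the 9 tested tubulins and stathmin (black) and for the named genes of the lists of tubulin folding, microtubule dynamics and microtubule motors. Filled points have an edgeR adjusted p under 0.05. The tubulins lie between -0.092 and 0.63 with open points, and Nusap1 reaches 1.64.

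Among 32 microtubule motors, kinesins and dynein with its partners, 29 were tested, 8 were called higher and 0 lower (2.35% and 1.74% of all genes). The median log2 fold change was 0.21, and it was -0.025 without EGFP+ replicate 1. All 8 called were kinesins. Kif11, which pushes the spindle poles apart, had 112.7 and 62.7 CPM in EGFP- and 213.9 and 184.7 CPM in EGFP+ libraries, a log2 fold change of 1.17 (standard error 0.21; edgeR adjusted p = 2.08e-04). Kif15, which acts beside Kif11, rose by 0.80 (edgeR adjusted p = 0.00167), Kif22, which binds chromosome arms, by 1.14 (edgeR adjusted p = 2.97e-04), and Kif20b, a kinesin of cytokinesis, by 1.15 (edgeR adjusted p = 5.84e-04). These 4 were also called with any single library left out. Kif11 shares 43 and Kif15 21 of their 451 end runs with other transcripts, so part of their reads could be assigned elsewhere. DESeq2 called these same 4 and no other motor, and 0 with the replicate block. Limma on the rlog values called 5 motors, and Kif11 was not among them. Without EGFP- replicate 2 the log2 fold change of Kif11 was 0.82.

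The chaperones that fold tubulin included genes called lower. In a list of 22 genes for the CCT chaperonin, prefoldin and the tubulin cofactors, 21 were tested, 1 was called higher and 2 lower (2.35% and 1.74% of all genes), 15 had a log2 fold change below 0 and the median was -0.13. Pfdn2, a prefoldin subunit that hands nascent tubulin to CCT, had 581.0 and 637.6 CPM in EGFP- and 378.7 and 378.0 CPM in EGFP+ libraries, a log2 fold change of -0.69 (standard error 0.14; edgeR adjusted p = 9.57e-04). Cct3, a CCT subunit, had 528.0 and 531.1 against 364.4 and 359.2 CPM, a log2 fold change of -0.55 (standard error 0.14; edgeR adjusted p = 0.0136). Tbcel, a cofactor-like protein that destabilises tubulin, was called higher, from 23.1 and 24.8 to 47.5 and 67.8 CPM, by 1.27 (edgeR adjusted p = 0.0228). Of the 3 calls, that of Pfdn2 remained with each library left out and with DESeq2, but it was lost with DESeq2 and the replicate block. The call of Cct3 was lost with each library left out (edgeR adjusted p = 0.0544 to 0.112) and with DESeq2 (adjusted p = 0.0758), and that of Tbcel without 3 of the libraries in turn (edgeR adjusted p = 0.0657 to 0.312) and with DESeq2 (adjusted p = 0.320).

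In the other lists edgeR, DESeq2, limma-voom and limma on the rlog values called 0 genes. An unadjusted p under 0.05 in edgeR was found for 15.5% of all genes. Of 20 genes of the gamma-tubulin complex and its recruiters, all 20 were tested, 1 had an unadjusted p under 0.05 and the median log2 fold change was 0.072. The most abundant, Pcnt, a scaffold of the centrosome, stood at 0.13 (standard error 0.22). Haus4, an augmin subunit named after its values were seen, was called higher without EGFP- replicate 2 (log2 fold change 0.96, edgeR adjusted p = 0.0403) and without EGFP+ replicate 2 (0.93, edgeR adjusted p = 0.0275). Of 16 tubulin-modifying enzymes 13 were tested, 1 had an unadjusted p under 0.05 and the median was -0.090. With each library left out this median ran from -0.41 to 0.15. The deacetylase Sirt2, the most abundant, stood at 0.063 (standard error 0.30), and its exons overlap those of Nfkbib on the other strand, which had 57 to 121 counts. Of 12 kinases and phosphatases that act on stathmin 10 were tested, 1 had an unadjusted p under 0.05 and the median was 0.080, with Pak2, the most abundant, at -0.058 (standard error 0.16). Of 14 further tubulins and stathmins 8 had 0 counts in each library and 2 were tested, with 0 at an unadjusted p under 0.05: Tubb2b, given above, and the centriolar Tube1, with 7 and 14 counts in EGFP- and 14 and 8 in EGFP+ libraries.

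**Figure D5:**
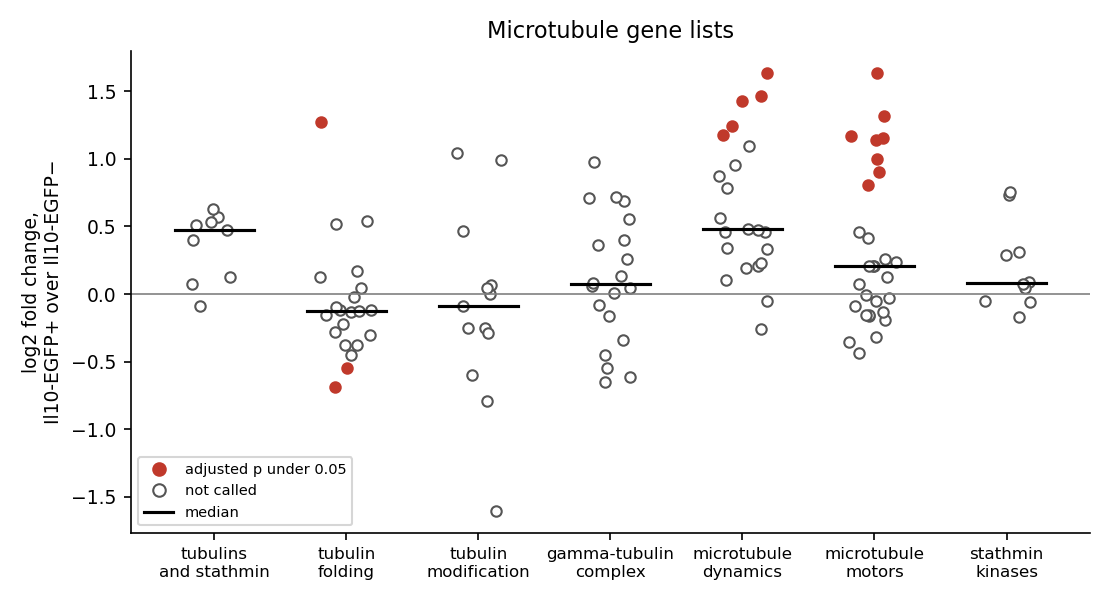
Log2 fold changes of each tested gene, 1 point per gene, by list, with red points for an edgeR adjusted p under 0.05 and a line at the list's median. Red points lie at 0.80 or above for microtubule dynamics and motors, 2 of the 3 for tubulin folding lie below 0, and the tubulins and stathmin have none.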

How the data were processed

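The authors sequenced 3′ mRNA libraries (QuantSeq FWD) made from 5 ng of RNA with 22 PCR cycles, and deposited raw counts of reads per Ensembl gene and rlog values on a log2 scale. The processing notes name FastQC, STAR 2.5.2a, HTSeq 0.6.0 and DESeq2 on GRCm38. Molecular identifiers were part of the libraries, to assess PCR duplicates per the labels and methods. The annotation release, strand setting, treatment of reads with several matches and whether the deposited counts were collapsed by identifier are not given in the sources used here. The RNA kit is PureLink RNA Micro in the labels and Arcturus Picopure in the methods.

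Genes whose deposited counts summed to 10 or more were compared between the populations by edgeR 4.0.16 (R 4.3.3) with TMM scaling, glmQLFit at its default legacy fit, glmQLFTest and a Benjamini-Hochberg threshold of 0.05. The fold changes of the fit were checked on counts simulated with a common dispersion for all genes. That setting differs from these libraries, so the check does not bear on false calls here. CPM are TMM-scaled values computed from the counts. Other fits used DESeq2 1.42.0 and limma 3.58.1. A gene symbol was lacking for 419 identifiers, which stayed in the tests. Coordinates and transcripts are those of GENCODE M21 (GRCm38), and identities were computed with Biopython 1.88. The edgeR p-values and intervals rest on 2 libraries per population. Each gene's spread was drawn toward that of other genes, with at least 52.2 prior degrees of freedom. These values therefore do not measure the spread of a gene's own replicates alone.

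The members and all lists, markers included, were chosen with earlier results of these data known. The text names all members, the tested genes of the list of further tubulins and stathmins, and in each other list of the pathway the called genes, at most the 4 with the largest mean CPM, or the gene with the largest mean CPM where none was called. For likeness it names the 3 nearest genes. One stretch of sequence is not reported here.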

Additional observations from a re-analysis of the deposited data

How the results depend on the processing

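The number of genes called, 393, was 112 with DESeq2 (which gave no adjusted p for 4284 genes), 197 with limma on rlog values, 177 at an adjusted p under 0.01 and 39 with DESeq2 and a replicate block. It ran from 212 to 272 with each library left out, where the lone library was assumed to vary like the other group. The edgeR replicate block called 560. No source used here says that equal numbers mark 1 mouse. The number of members called, 0, was 1 (Tuba1c) with no filter, with 10 counts in every library and with the edgeR replicate block, and ran from 0 to 1 with each library left out. It was 0 under all other alternatives, paralogues merged included. The summed alpha-tubulin difference moved from 96.9 to 69.7 CPM with library size only and ran from 90.5 to 103.3 CPM with each library left out. That of the beta-tubulins, 155.3 CPM, ran from -22.2 to 332.7 CPM. Log2 fold changes reversed without 1 library for Tuba1b (0.049 without Il10-EGFP+ replicate 1, range -0.26 to 0.049), Tubb5 (-0.076 and -0.080, without replicate 2 of Il10-EGFP- or replicate 1 of Il10-EGFP+, range -0.080 to 0.25), Tube1 (-0.29 and -0.36 without replicate 1 of Il10-EGFP- and of Il10-EGFP+, range -0.36 to 0.80), Sirt2 (-0.069 and -0.037 without replicate 2 of each, range -0.069 to 0.21) and Pcnt (-0.068 without Il10-EGFP+ replicate 1, range -0.068 to 0.32). The other members kept their direction throughout. For the other lists the same alternatives were added after the data were seen. The calls among motors fell from 8 to 4 with DESeq2 and 0 with its replicate block, those of microtubule dynamics from 5 to 4 and 2, and those of tubulin folding from 3 to 1 and 0. In the gamma-tubulin list Haus4 was also called with 10 counts in every library (adjusted p = 0.0362, edgeR) and with the edgeR replicate block (0.0262). The cause of these changes was not tested. Tuba1a, Tubb2a, Tubg1 and Stmn1 had under 100 counts in each library, which limits the differences that could be called.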
